A study of Mus musculus with 4 samples.

Results

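The Elavl and Celf genes encode the RNA-binding proteins described here, 4 Elavl genes (Elavl1 to Elavl4) and 6 Celf genes (Celf1 to Celf6). They were chosen by name, as all members of both families with a row in the count tables, so 10 of 45706 features are covered. Elavl proteins, also called Hu proteins, bind U-rich and AU-rich stretches of messenger RNA, keep target transcripts from being degraded and also act on splicing in the nucleus. Elavl1 is made by most cell types, whereas Elavl2, Elavl3 and Elavl4 are known as neuronal and are common markers of young neurons. CELF proteins bind GU-rich stretches and regulate splicing, decay and translation. Celf1 and Celf2 are found in many tissues, and Celf3 to Celf6 are known mainly from the nervous system.

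The libraries were made from nuclei of the mouse dentate gyrus, a region in which radial glia-like stem cells (RGL) go on making granule cells in the adult. Young adult mice of both sexes with a CreERT2 driver and the CAGfloxStopSun1sfGFP reporter, on a C57Bl/6J background, received tamoxifen, which makes Cre active in the cells that express the driver, and these cells and their progeny then carry green nuclei for good. Green nuclei were sorted 1, 2, 4 or 8 weeks later (w1, w2, w4 and w8) from the left dentate gyri of 4 mice per week, and each pool gave 1 droplet library. All groups therefore share the genotype and the drug and differ in the time since labelling. The sort selected green nuclei, and whether some were labelled without the driver being active was not tested. No group of untreated mice was analysed here. The 14367 nuclei in the authors' table were used with the 13 clusters deposited for them. Along the lineage these are RGL, neural progenitor cells (NPC), neuroblasts (NB1, NB2), immature granule cells (GCimm1, GCimm2), young granule cells (GCyoung) and mature granule cells (GCmat1, GCmat2). Astrocytes, oligodendrocyte precursor cells (OPC), oligodendrocytes and a cluster named pericytes stand apart from it.

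The kept nuclei held 13227971 to 28595331 UMIs per library, the median nucleus had between 4369 UMIs in w1 and 7703.5 in w8, and 22 barcodes occurred in more than 1 library. Marker genes went with the deposited names in that all 3 astrocyte, all 3 oligodendrocyte, all 3 OPC and all 5 NPC markers were highest in the cluster so named. Of 5 RGL markers 3 were highest in RGL, 1 in OPC and 1 in the cluster named pericytes, 2 of 4 immature granule cell markers were highest in NB1, and the 4 mature granule cell markers were highest in GCyoung (2), GCmat1 (1) and GCmat2 (1). Of 4 markers listed for the cluster named pericytes 3 were highest in it and 1 in RGL. The pericyte gene Rgs5 had no UMI there, so the cluster is given by that name only as the authors' label. Levels below are in the counts-per-million unit (CPM), the UMIs of a gene over all UMIs of the same nuclei, counted over exons and introns, and a cluster enters a library's values with at least 10 nuclei. GCmat1 thus counts 17 nuclei of w1 as 1 library, beside 403 nuclei in w4 and 2927 in w8. How these w1 nuclei came to be labelled was not tested. Each week is 1 pool of animals, so the spread between libraries mixes age since labelling with the difference between pools. No test was made between weeks. Clusters were compared with edgeR on UMI sums per library and cluster, with the library as a term, and a call needed a fold of 1.5 or more with an adjusted p of 0.05 or less over all genes tested. The clusters were drawn from the expression of these same nuclei, so a small p-value is no second, independent proof that the clusters differ.

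The promoters of Elavl2, Elavl4, Elavl3 and Celf2 are shown because the results turn on them. Elavl2 and Elavl4 are the pair with its highest cluster mean in NPC. Elavl3 is the neuronal Elavl gene still found in most GCmat1 nuclei, and Celf2 the Celf gene with the most UMIs. Each promoter window runs from 250 bases before to 50 after the RefSeq start on GRCm38.p6. Windows of 9 of the 10 genes, all but Celf4, were used here. Capitals mark the letters of 4 searched motifs on either strand, the E-box CAGATG (reverse CATCTG), the Sox-type AACAAAG (reverse CTTTGTT), the GC box GGGCGG (reverse CCGCCC) and the TATA box TATAAA (reverse TTTATA).
Elavl2, chr4:91399935-91400234 on the minus strand: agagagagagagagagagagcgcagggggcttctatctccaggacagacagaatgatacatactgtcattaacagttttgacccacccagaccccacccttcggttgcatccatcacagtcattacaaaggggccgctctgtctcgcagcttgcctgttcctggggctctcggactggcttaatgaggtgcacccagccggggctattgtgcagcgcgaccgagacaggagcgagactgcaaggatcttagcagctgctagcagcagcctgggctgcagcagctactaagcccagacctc
Elavl4, chr4:110286785-110287084 on the minus strand: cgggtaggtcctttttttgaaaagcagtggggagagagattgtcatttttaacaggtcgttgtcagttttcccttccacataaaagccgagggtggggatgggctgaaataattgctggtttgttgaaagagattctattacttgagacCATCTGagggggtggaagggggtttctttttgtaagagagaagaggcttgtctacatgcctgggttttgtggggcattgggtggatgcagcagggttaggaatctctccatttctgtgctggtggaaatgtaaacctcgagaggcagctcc
Elavl3, chr9:22051974-22052273 on the minus strand: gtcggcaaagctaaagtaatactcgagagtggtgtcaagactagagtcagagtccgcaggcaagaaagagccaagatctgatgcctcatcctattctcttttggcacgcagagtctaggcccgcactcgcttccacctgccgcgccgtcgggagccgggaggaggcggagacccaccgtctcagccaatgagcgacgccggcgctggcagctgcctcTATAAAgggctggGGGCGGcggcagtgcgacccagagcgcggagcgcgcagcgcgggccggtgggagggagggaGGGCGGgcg
Celf2, chr2:6721613-6721912 on the minus strand: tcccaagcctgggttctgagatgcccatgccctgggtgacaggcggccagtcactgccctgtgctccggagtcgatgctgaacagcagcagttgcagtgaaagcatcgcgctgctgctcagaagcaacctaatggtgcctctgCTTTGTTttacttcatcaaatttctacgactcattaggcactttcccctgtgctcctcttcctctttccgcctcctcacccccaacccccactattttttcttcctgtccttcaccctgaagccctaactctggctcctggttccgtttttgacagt
The Elavl2 window held none of the 4 motifs, and the Elavl4 window held 1 CAGATG, which 17.2% of the 32851 windows used here hold (none on the chromosome of Celf4). The Elavl3 window held 1 TATAAA (13.6% of windows) and 2 GGGCGG (35.7%), and the Celf2 window held 1 AACAAAG (5.85%). The windows also differed in base composition. GC content was 47.3% in Elavl4, 57.0% in Elavl2, 54.0% in Celf2 and 65.3% in Elavl3, against a median of 52.7% over these windows, and Elavl4 had 4 CpG where Elavl3 had 29 and the median window 7. Elavl2, Elavl4 and Celf2 have several listed windows (6, 4 and 5), of which only the one nearest to the start of the principal transcript is shown. A match is a description of these letters only.

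In GENCODE M21 on GRCm38, Elavl2 (chr4:91250763-91400785, minus strand) and Elavl4 (chr4:110203722-110351909, minus strand) share chromosome 4, Elavl3 (chr9:22015005-22052023, minus strand) and Celf6 (chr9:59577917-59607292, plus strand) share chromosome 9, and Celf1 (chr2:90940382-91019497, plus strand) and Celf2 (chr2:6539694-7509563, minus strand) share chromosome 2. Elavl1 (chr8:4285382-4325413, minus strand), Celf3 (chr3:94478295-94492198, plus strand), Celf5 (chr10:81459227-81482709, minus strand) and Celf4 are the only members on their chromosomes. Because intronic reads count, long genes can collect more UMIs, and the spans ran from 13.9 kb for Celf3 to 969.9 kb for Celf2. The order of 2 genes by level is therefore read only after division by span, a correction that was not tested here, and shares of UMIs or summed levels of a family are not corrected for it. Some spans overlap other genes on the opposite strand, Ccl25 (7555 UMIs in all nuclei against 9692 for Elavl1), Riiad1 (1474 against 13435 for Celf3), Gm16105 (5813 against 9552 for Celf5) and Gm37340 (6135 against 488008 for Celf2). The annotated Gm49318 overlaps Elavl3 on the same strand and is not among the counted features, so reads from it may be counted as Elavl3. The methods of the study give default settings for the counting, which in STARsolo keep to the strand of the gene, without naming the strand. Where both of 2 genes on the same strand were counted, their counts are uncertain to the extent that reads were split or dropped between them. The same holds for genes on opposite strands if another setting was used.

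The first question was at which step of the lineage each gene changed. From astrocytes to RGL 3 of 10 members were called, all higher in RGL (Elavl2, Elavl4 and Celf3), while 9.58% (4.77% higher, 4.82% lower) of all 13513 genes tested were called. From RGL to NPC 4 of 10 rose (Elavl2, Elavl3, Elavl4 and Celf4), against 29.5% (13.7% higher, 15.9% lower) of all genes called. From NPC to NB1 5 rose (Elavl3, Celf2, Celf3, Celf4 and Celf5) and Elavl4 fell, against 29.3% (14.7% higher, 14.6% lower) of all genes. Elavl4 alone, 1 of 10, fell from NB1 to NB2, against 2.94% (1.81% higher, 1.13% lower) of all genes. From NB1 to GCimm1 Elavl2 and Elavl4 fell and Celf6 rose, 3 of 10 against 12.5% (7.76% higher, 4.75% lower) of all genes. From GCimm1 to GCimm2 Elavl2 fell and Celf2 rose, 2 of 10 against 9.43% (6.52% higher, 2.91% lower) of all genes. From GCimm2 to GCyoung Elavl2 and Elavl4 fell and Celf1 and Celf2 rose, 4 of 10 against 18.9% (9.27% higher, 9.62% lower) of all genes.

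No member was called from GCyoung to GCmat1, where 3.85% (1.6% higher, 2.25% lower) of all genes were, or from GCmat1 to GCmat2, where 7.3% (3.01% higher, 4.28% lower) were. At an unadjusted p under 0.05 the counts were 0 and 2 of 10 (Celf6 and Elavl4, the latter at 0 UMIs in GCmat2), and DESeq2 called 0 at both steps. The net change from RGL to GCmat1 was called for 9 of 10 members, against 49.5% (24.6% higher, 24.9% lower) of all genes. Elavl1 was the exception, 7 genes were higher in GCmat1, and Elavl2 and Elavl4 were lower. From NB1 to GCmat1 7 were called, against 40.1% (20.2% higher, 19.9% lower) of all genes, and Elavl2, Elavl3 and Elavl4 were lower while Celf1, Celf2, Celf4 and Celf5 were higher. With all libraries in the fit, every Elavl gene called between NB1 and GCmat1 fell and every Celf gene called rose.

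**Figure D1:**
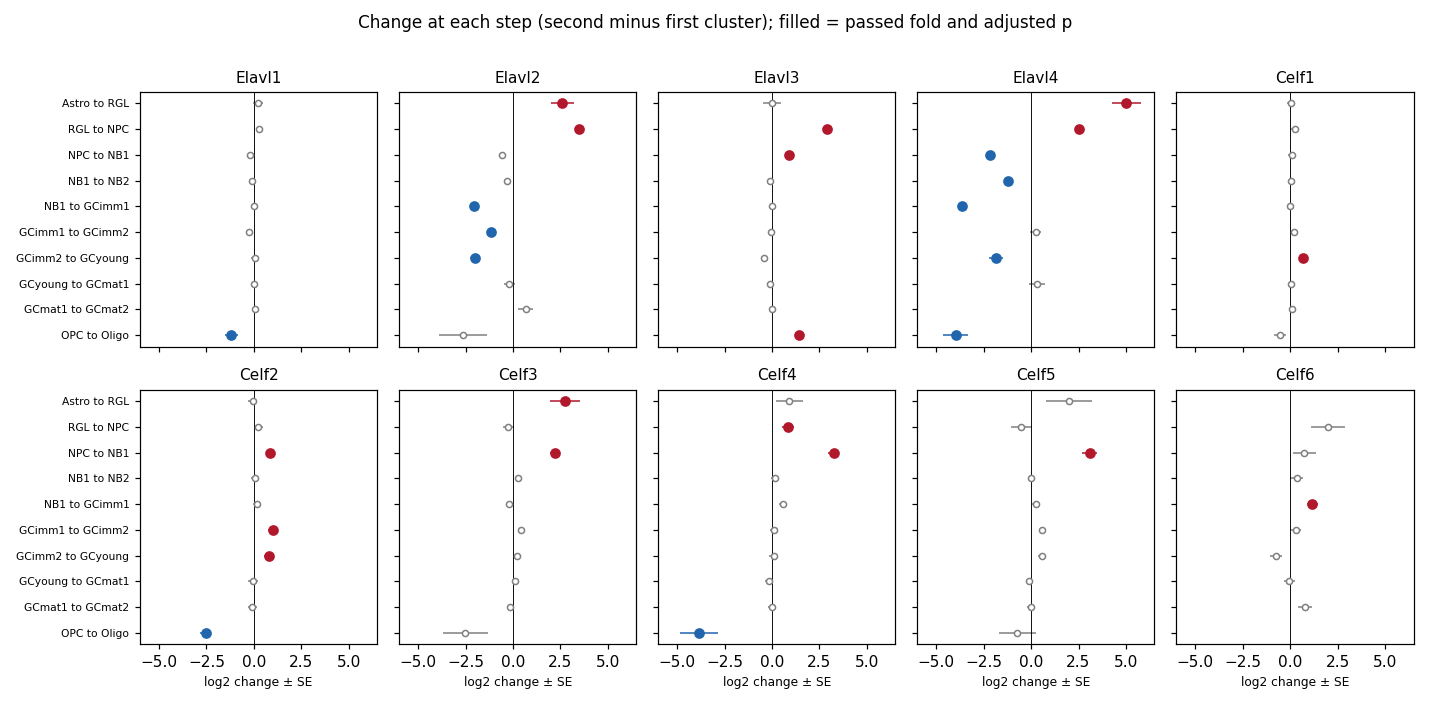
Log2 change of each gene between consecutive clusters (horizontal axis, second minus first cluster, bar = standard error of the edgeR fit; filled points passed the fold change and the adjusted p, red higher and blue lower), with the 10 comparisons on the vertical axis. Elavl2 and Elavl4 rise into NPC and then fall at later steps, whereas filled points of the Celf genes along the lineage lie to the right of 0; fits with a standard error above 2 are not drawn.

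The fit scales each sum by TMM, which differs from the plain share of UMIs used for the levels. The scaled log2 level lay below the plain one by 0.41 in NPC on average and above it by 0.42 in GCyoung and 0.34 in GCmat1. Changes into NPC are thus shifted downwards in the fit against the levels, and changes into GCyoung are shifted upwards. Scaling by RLE instead moved the all-gene median from 0.00 to -0.16 (log2) for RGL to GCmat1, from 0.27 to 0.07 for astrocytes to RGL, from -0.39 to -0.14 for neurons to glia and from -0.43 to -0.30 for OPC to oligodendrocytes. Among all genes called, those higher made up 49.7% for astrocytes to RGL, against 34.8% with RLE scaling and 26.3% with DESeq2. DESeq2 also moved that share from 50.1% to 40.1% for NPC to NB1, from 61.5% to 72.7% for NB1 to NB2, from 49.1% to 37.4% for GCimm2 to GCyoung, from 41.5% to 24.5% for GCyoung to GCmat1 and from 41.3% to 55.4% for GCmat1 to GCmat2. No called member changed direction with that scaling or with DESeq2.

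Elavl2 (HuB) was high for a short stretch of the lineage. In RGL it stood at 80.9 (w1), 78.0 (w2), 60.4 (w4) and 73.3 (w8) CPM. In NPC it stood at 1275 (w1), 899.6 (w2) and 721 (w4) CPM, above every RGL value. The rise from RGL to NPC was the steepest of the members at that step (log2 change 3.46 ± 0.18 (SE), edgeR adjusted p = 1.54e-21). In NB1 the level was 562 (w1), 452 (w2) and 618 (w4) CPM, below NPC in each of the 3 libraries. The fitted change at this step missed the fold of 1.5 in the fit with all libraries (log2 change -0.58 ± 0.17 (SE), edgeR adjusted p = 0.0062) and passed it with DESeq2, with RLE scaling, after thinning and without w4 (log2 change -0.84, adjusted p = 0.00173).

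Elavl2 then fell in steps. It averaged 417 ± 106 CPM (SD, n = 3) in NB2, 121 ± 25.8 CPM (SD, n = 3) in GCimm1 and 49.4 ± 10.2 CPM (SD, n = 3) in GCimm2. The ranges of NB2, GCimm1 and GCimm2 did not overlap. The fall from NB1 to GCimm1 passed (log2 change -2.05 ± 0.17 (SE), edgeR adjusted p = 6.49e-14). The next fall, from GCimm1 to GCimm2, passed too (log2 change -1.14 ± 0.20 (SE), edgeR adjusted p = 2.79e-05). The last called fall, into GCyoung, was of like size to the first (log2 change -2.03 ± 0.27 (SE), edgeR adjusted p = 3.10e-08). In GCyoung, GCmat1 and GCmat2 the level of Elavl2 lay between 5.27 and 19.0 CPM, in the range of astrocytes (0 to 26.7 CPM), and below that of RGL in each library. Nuclei with an Elavl2 UMI made up 84.4% (178 of 211 nuclei) of NPC, 65.6% (1692 of 2578 nuclei) of NB1 and 7.60% (255 of 3356 nuclei) of GCmat1. After thinning every nucleus to 2000 UMIs the shares were 76.7%, 50.3% and 2.12%.

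Elavl4 (HuD) rose with Elavl2 and fell sooner. It was already present in RGL, at 106 (w1), 90.2 (w2), 98.7 (w4) and 73.3 (w8) CPM, and reached 786 (w1), 678 (w2) and 616 (w4) CPM in NPC. All NPC values lay above all RGL values (log2 change 2.52 ± 0.16 (SE), edgeR adjusted p = 3.53e-18). In NB1 it was down to 164 (w1), 113 (w2) and 109.8 (w4) CPM. It was the only member called lower at that step (log2 change -2.16 ± 0.16 (SE), edgeR adjusted p = 3.03e-16), and at the same step Elavl3 rose. A further fall from NB1 to NB2, where Elavl4 stood at 58.2 (w1), 55.8 (w2) and 76.9 (w4) CPM, passed the test (log2 change -1.24 ± 0.19 (SE), edgeR adjusted p = 7.45e-06), and it no longer passed without w1 (log2 change -0.97, adjusted p = 0.129) or with DESeq2 (adjusted p = 0.14). By GCimm1 it was at 16.8 (w1), 9.14 (w2) and 5.54 (w4) CPM (log2 change -3.62 ± 0.21 (SE), edgeR adjusted p = 6.99e-19). Granule cells from GCyoung on held almost none of it, with 74 UMIs among 29188310 in GCmat1 and none among 1560254 in GCmat2.

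The late fall of Elavl4 from GCimm2 to GCyoung (log2 change -1.83 ± 0.37 (SE), edgeR adjusted p = 1.44e-04) rested on few UMIs. GCimm2 stood at 11.8 (w2), 5.18 (w4) and 0 (w8) CPM and GCyoung at 1.84 (w4) and 2.79 (w8) CPM, so both ranges overlapped. The call was lost without w2 (log2 change -1.03, adjusted p = 0.271) and without w4 (-1.58, adjusted p = 0.428), and after thinning (-0.73, adjusted p = 0.54). Between astrocytes and RGL the difference was large (log2 change 5.01 ± 0.76 (SE), edgeR adjusted p = 1.56e-06), against a single Elavl4 UMI in all astrocytes. By pooled counts RGL held 32.5 times (exact interval 5.82 to 1287) the astrocyte level. Elavl2 differed in the same direction (log2 change 2.59 ± 0.60 (SE), edgeR adjusted p = 0.00176), and its call was lost without w1 (log2 change 2.20, adjusted p = 0.0721) and after thinning (adjusted p = 0.0646). Among RGL nuclei 25.8% (358 of 1387 nuclei) had an Elavl4 UMI and 19.1% (265 of 1387 nuclei) an Elavl2 UMI, against 1.49% (1 of 67 nuclei) and 4.48% (3 of 67 nuclei) of astrocytes.

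Elavl3 (HuC) rose at the same step as Elavl2 and Elavl4, rose again into NB1 and was lower, though still found, in the granule cells from GCyoung on. It stood at 26.5 (w1), 39.0 (w2), 26.5 (w4) and 22.3 (w8) CPM in RGL, within the span of the astrocytes (21.7 to 44.5 CPM). In NPC it was 240.5 (w1), 357 (w2) and 197 (w4) CPM (log2 change 2.87 ± 0.20 (SE), edgeR adjusted p = 2.34e-17). In NB1 it was 406 (w1), 455 (w2) and 428 (w4) CPM, above all NPC values (log2 change 0.91 ± 0.17 (SE), edgeR adjusted p = 2.68e-05). From NB1 to GCimm2 the mean moved only from 429.6 to 351 CPM and neighbouring clusters overlapped. Lower levels followed in GCyoung (196 (w4) and 189.6 (w8) CPM) and GCmat1 (243 (w1), 172 (w4) and 171 (w8) CPM), both below every GCimm2 value. The w1 value of GCmat1 rests on 17 nuclei. The step from GCimm2 to GCyoung did not pass (log2 change -0.42 ± 0.18 (SE), edgeR adjusted p = 0.0926). TMM raises GCyoung and GCmat1 against the plain levels, and by plain CPM the averages of this step and of NB1 to GCmat1 (from 429.6 to 195) differed by more than the fold of 1.5. The net fall from NB1 to GCmat1 passed (log2 change -0.60 ± 0.17 (SE), edgeR adjusted p = 0.00287), close to the fold threshold in the fit, and was lost without w1 (log2 change -0.58), without w4 (-0.59) and without w8 (-0.58). An Elavl3 UMI was found in 70.1% (2352 of 3356 nuclei) of GCmat1 and 75.0% (1934 of 2578 nuclei) of NB1, and in 29.4% and 54.9% after thinning.

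Elavl1 (HuR), the broadly expressed member, varied least within the Elavl family. Its cluster means along the lineage ran from 207 ± 26.4 CPM (SD, n = 3) in NPC down to 85.4 ± 7.40 CPM (SD, n = 2) in GCyoung. It was highest in NPC in each of w1, w2 and w4 against RGL and NB1 of the same library, and the fitted rise was small (log2 change 0.27 ± 0.17 (SE), edgeR adjusted p = 0.251). No step of the lineage called Elavl1, and the net change from RGL to GCmat1 was not called either (log2 change -0.11 ± 0.16 (SE), edgeR adjusted p = 0.573). By plain CPM Elavl1 averaged 132.9 in RGL and 88.3 in GCmat1, with no overlap between libraries (120.0 to 140.9 and 75.2 to 96.1). TMM raises GCmat1 against the plain levels, so the fitted change is the smaller one. The Elavl1 ranges of consecutive clusters in the order of level overlapped throughout all 13 clusters.

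**Figure D2:**
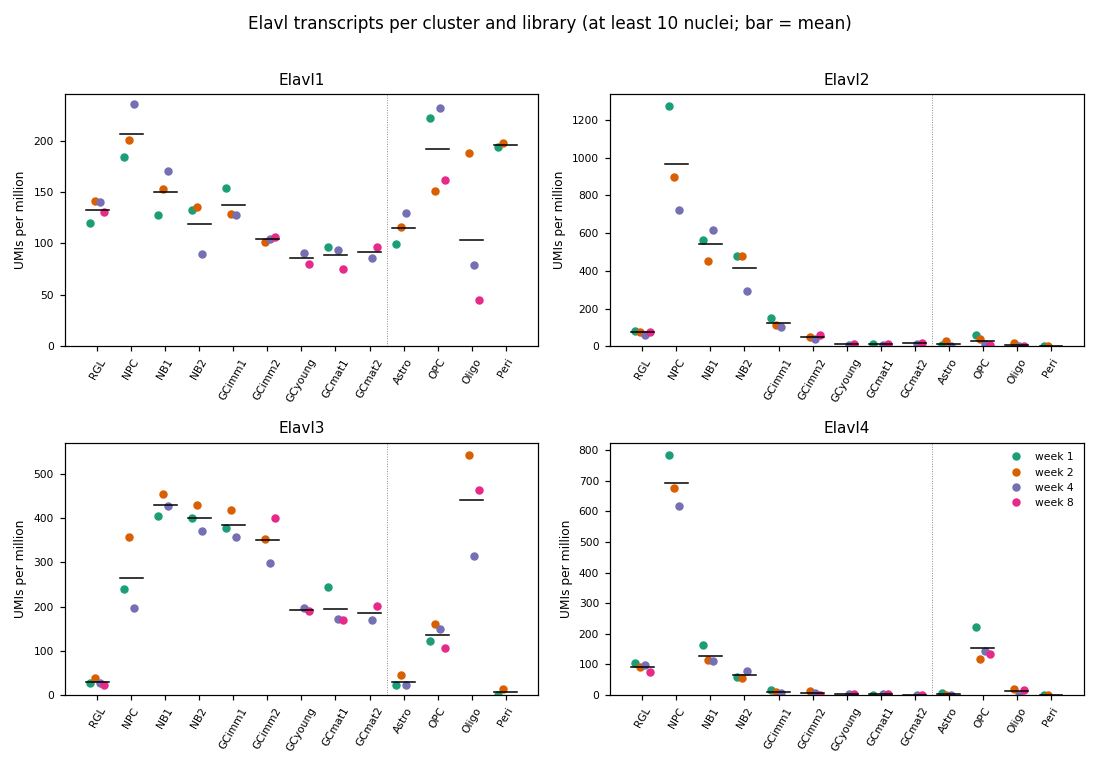
Levels of the 4 Elavl genes (vertical axis, CPM, own scale for each gene) in each cluster (horizontal axis), with 1 point per library of at least 10 nuclei and a bar at the mean. Elavl2 and Elavl4 have their highest cluster mean in NPC. Elavl3 averages between 385 and 429.6 from NB1 to GCimm1 and 441 in oligodendrocytes, and Elavl1 varies least.

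The share of each gene in the Elavl UMIs differed along the lineage. These shares depend on span, so they are read across clusters and give no order between genes. Of all Elavl UMIs in RGL, 39.5% were Elavl1, 29.0% Elavl4, 22.4% Elavl2 and 9.15% Elavl3. In NPC Elavl2 gave 47.5% and Elavl4 31.9% of them. In NB1 Elavl2 gave 42.5% and Elavl3 34.6%, and in GCmat1 Elavl3 gave 65.3% and Elavl1 29.6%. The summed level of the family went from 335 CPM in RGL to 2272 in NPC, and down through 1229.7 in NB1 and 662 in GCimm1 to 262 in GCmat1. Per kilobase of gene span the NPC levels were those of Elavl3 (7.48 CPM per kb), Elavl2 (7.19), Elavl4 (4.88) and Elavl1 (4.81). In NB1 they were 11.5 CPM per kb for Elavl3, 3.49 for Elavl2, 3.48 for Elavl1 and 0.96 for Elavl4. In GCmat1 Elavl3 stood at 4.62 CPM per kb and Elavl2 at 0.0726.

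UMIs of Elavl2 and Elavl4 were counted in the same nuclei. Of 211 NPC nuclei 157 (74.4%) held UMIs of both, 21 of Elavl2 without Elavl4, 23 of Elavl4 without Elavl2 and 10 of neither. Taken singly, Elavl2 was found in 84.4% (178 of 211 nuclei) and Elavl4 in 85.3% (180 of 211 nuclei), so most NPC nuclei would hold both also if the genes were unrelated, and no association was tested. In NB1 559 of 2578 nuclei (21.7%) held both, and 1133 (43.9%) held Elavl2 without Elavl4. In RGL the more frequent class was the other way round, with 267 of 1387 nuclei (19.3%) holding Elavl4 without Elavl2, 174 (12.5%) Elavl2 without Elavl4 and 91 (6.56%) both. These shares are from unthinned nuclei and depend on depth. The 83 NPC nuclei with a UMI of Top2a, a gene of dividing cells, held 844 CPM of Elavl2 and 617 CPM of Elavl4, and the 128 without it held 1261 and 807 CPM. Within libraries the order differed. Elavl2 stood at 857 with and 1579 CPM without a Top2a UMI in w1, 818 and 966 in w2, and 873 and 506 in w4, where 12 and 10 nuclei were compared. Elavl4 stood at 557 and 952 CPM in w1, 680.4 and 676 in w2, and 694 and 506 in w4, so its pooled order held in w1 and in neither w2 nor w4.

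**Figure D3:**
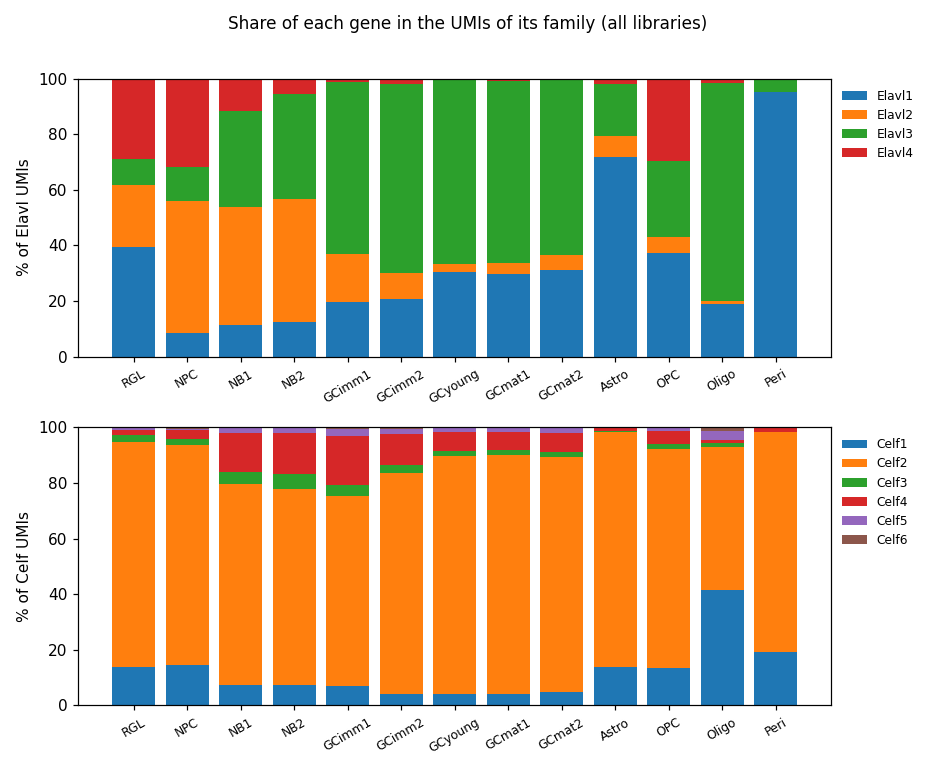
Share of each gene in the UMIs of its family (vertical axis, percent, all libraries pooled, not corrected for gene span) in each cluster (horizontal axis). The share of Elavl3 goes from 12.2% in NPC to 65.3% in GCmat1 while that of Elavl4 goes from 31.9% to 0.967%, and the share of Celf2, the longest gene, runs from 51.7% in oligodendrocytes to 86.1% in GCmat1.

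Celf2 gave the most UMIs of all members, over the longest span, and rose in steps towards mature granule cells. It averaged 1225 ± 155 CPM (SD, n = 4) in RGL, 1785 ± 257 CPM (SD, n = 3) in NPC and 2612 ± 237 CPM (SD, n = 3) in NB1. NB1, NB2 and GCimm1 overlapped. Above them stood GCimm2, at 4540.2 (w2), 5316 (w4) and 5563 (w8) CPM, and GCyoung, at 7471 (w4) and 7668 (w8) CPM, without overlap. The steps called were NPC to NB1 (log2 change 0.85 ± 0.23 (SE), edgeR adjusted p = 0.00365), GCimm1 to GCimm2 (log2 change 0.99 ± 0.24 (SE), edgeR adjusted p = 0.00218) and GCimm2 to GCyoung (log2 change 0.79 ± 0.26 (SE), edgeR adjusted p = 0.0198). By plain CPM the averages of the first and the last of these steps differed by less than the fold of 1.5. The net rise from RGL to GCmat1 passed as well (log2 change 2.96 ± 0.22 (SE), edgeR adjusted p = 4.33e-17). Divided by its span, the longest of the members, Celf2 stood at 1.26 CPM per kb in RGL and 8.01 in GCmat1, where Celf3 stood at 11.2. Nearly every granule cell nucleus held a UMI of it, and Celf2 is absent from the authors' log2 expression table under its symbol, a table from which widely detected features were removed.

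Single libraries decided the calls for Celf2 at each of these steps, although the log2 change without them lay between 0.75 and 0.98. From NPC to NB1 the call was lost without w2 (log2 change 0.77, adjusted p = 0.0918). From GCimm1 to GCimm2 it was lost without w2 (0.98, adjusted p = 0.134) and without w4 (0.97, adjusted p = 0.0798). From GCimm2 to GCyoung it was lost without w2, w4 or w8, with log2 changes of 0.80, 0.75 and 0.78. The net rise from RGL to GCmat1 passed whichever library was left out.

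Celf4, Celf3 and Celf5, the neural members, came on at the step into neuroblasts. Celf4 stood at 22.2 (w1), 25.4 (w2), 44.9 (w4) and 19.1 (w8) CPM in RGL, 70.1 (w1), 46.2 (w2) and 78.6 (w4) in NPC and 534 (w1), 509.8 (w2) and 430.2 (w4) in NB1. Every NB1 value lay far above every NPC value, and the fitted rise of Celf4 was the largest at that step (log2 change 3.24 ± 0.28 (SE), edgeR adjusted p = 4.62e-14). Celf5 was close to it (3.08 ± 0.40 (SE)), with a UMI in only 9 of 211 NPC nuclei, so which of them rose more is not settled. The small earlier rise from RGL to NPC passed at the edge of the threshold (log2 change 0.83 ± 0.33 (SE), edgeR adjusted p = 0.0489) and was lost without w1 (log2 change 0.40, adjusted p = 0.604), w2 (0.0771) or w8 (0.0729), and after thinning. From NB1 on Celf4 changed little, with cluster means between 491 and 673 CPM. The call of a rise from NB1 to GCmat1 (log2 change 0.59 ± 0.21 (SE), edgeR adjusted p = 0.0206) was lost without w2 (adjusted p = 0.0565), w4 (0.195) or w8 (0.0672) and fell under the fold after thinning (log2 change 0.48). By plain CPM the averages were 491 in NB1 and 564 in GCmat1, less than the fold of 1.5 apart. Without w1 the first part of it, from NB1 to GCimm1, was called too (0.67, adjusted p = 0.0191). Of 211 NPC nuclei 38 held a Celf4 UMI, against 74.8% (1928 of 2578 nuclei) of NB1.

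Celf3 stood at 42.1 (w1), 46.2 (w2) and 26.2 (w4) CPM in NPC and 162 (w1), 172 (w2) and 152 (w4) in NB1, without overlap (log2 change 2.22 ± 0.26 (SE), edgeR adjusted p = 5.91e-10). RGL held as much as NPC (42.1 ± 6.22 CPM (SD, n = 4)), and in all later lineage clusters the means lay between 126 and 182 CPM. Per kilobase Celf3 was the highest Celf gene in NB1, at 11.9 CPM per kb against 3.50 for Celf1, 3.00 for Celf5, 2.81 for Celf2 and 1.88 for Celf4. Its difference between astrocytes and RGL (log2 change 2.73 ± 0.78 (SE), edgeR adjusted p = 0.0138) compared 2 UMIs in all astrocytes with 242 in RGL, a ratio of 6.65 times (exact interval 1.82 to 55.2). From NB1 to GCmat1 Celf3 missed the fold of 1.5 (log2 change 0.56 ± 0.18 (SE), edgeR adjusted p = 0.00972), and it was called without w1 (log2 change 0.70, adjusted p = 0.00308) and under some other settings, such as thinning. The call between astrocytes and RGL was lost without w2 (adjusted p = 0.13), without w4 (0.0927) and with DESeq2 (0.115).

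Celf5 had its highest level late, in the granule cells. It stood at 4.01 (w1), 12.3 (w2) and 39.3 (w4) CPM in NPC and 64.1 (w1), 78.5 (w2) and 89.6 (w4) in NB1 (log2 change 3.08 ± 0.40 (SE), edgeR adjusted p = 1.04e-08). GCimm2 stood at 109.8 ± 17.6 CPM (SD, n = 3) and GCyoung at 140.3 ± 0.254 CPM (SD, n = 2), above every GCimm1 value. Neither step passed the fold of 1.5 (log2 change 0.57 ± 0.17 and 0.56 ± 0.19). The first was called without w4 (0.70) and without w8 (0.61), and the second without w2 (0.68). The net rise from NB1 to GCmat1 passed with all libraries (log2 change 1.27 ± 0.20 (SE), edgeR adjusted p = 4.29e-07).

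Celf6 gave the fewest UMIs of the members, 1535 UMIs in all nuclei. Its mean was 12.8 ± 0.609 CPM (SD, n = 3) in NB1 and 27.1 ± 2.24 CPM (SD, n = 3) in GCimm1. The 3 libraries did not overlap between these clusters, and the rise passed (log2 change 1.16 ± 0.28 (SE), edgeR adjusted p = 0.0019). It was lost without w2 (log2 change 1.06, adjusted p = 0.237) and with DESeq2 (0.0788). GCyoung (16.2 ± 2.74 CPM (SD, n = 2)) and GCmat1 (15.5 ± 3.65 CPM (SD, n = 3)) stood below GCimm1. The average of GCmat2 (30.3 ± 13.5 CPM (SD, n = 2)) lay above that of GCimm1. The step from GCmat1 to GCmat2 was not called (log2 change 0.80 ± 0.37 (SE), edgeR adjusted p = 0.246). From GCimm2 to GCyoung Celf6 was not called with all libraries and was called lower without w8 (log2 change -0.87, adjusted p = 0.0216), and from RGL to NPC higher only without w4 (2.23) or w8 (2.49), at 11 UMIs in RGL. Celf6 was seen in 0.721% (10 of 1387 nuclei) of RGL and 19.7% (193 of 979 nuclei) of GCimm2 nuclei.

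Celf1 (CUGBP1), the broad member, had the smallest net change from RGL to GCmat1 in this family. It averaged 215 ± 21.9 CPM (SD, n = 4) in RGL, 313 ± 28.7 CPM (SD, n = 3) in NPC and 251 ± 19.3 CPM (SD, n = 3) in GCimm1. The levels of GCyoung (350.0 (w4) and 346 (w8) CPM) and GCmat1 (378 (w1), 374 (w4) and 350.0 (w8) CPM) lay above all of these clusters. GCimm2 averaged 274 ± 46.3 CPM (SD, n = 3), with each value below those of GCyoung. The rise from GCimm2 to GCyoung passed (log2 change 0.68 ± 0.18 (SE), edgeR adjusted p = 0.00366). The averages differ by less than the fold of 1.5 on the plain CPM scale, the fitted change fell below the fold threshold with RLE scaling (log2 change 0.58) and the call was lost without w4 (0.39, adjusted p = 0.729). The net rise from NB1 to GCmat1 (log2 change 0.93 ± 0.17 (SE), edgeR adjusted p = 8.12e-06) was also under the fold of 1.5 by plain CPM and lost without w4 (adjusted p = 0.0776). The rise from RGL to GCmat1 (log2 change 1.25 ± 0.15 (SE), edgeR adjusted p = 6.78e-10) passed whichever library was left out.

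**Figure D4:**
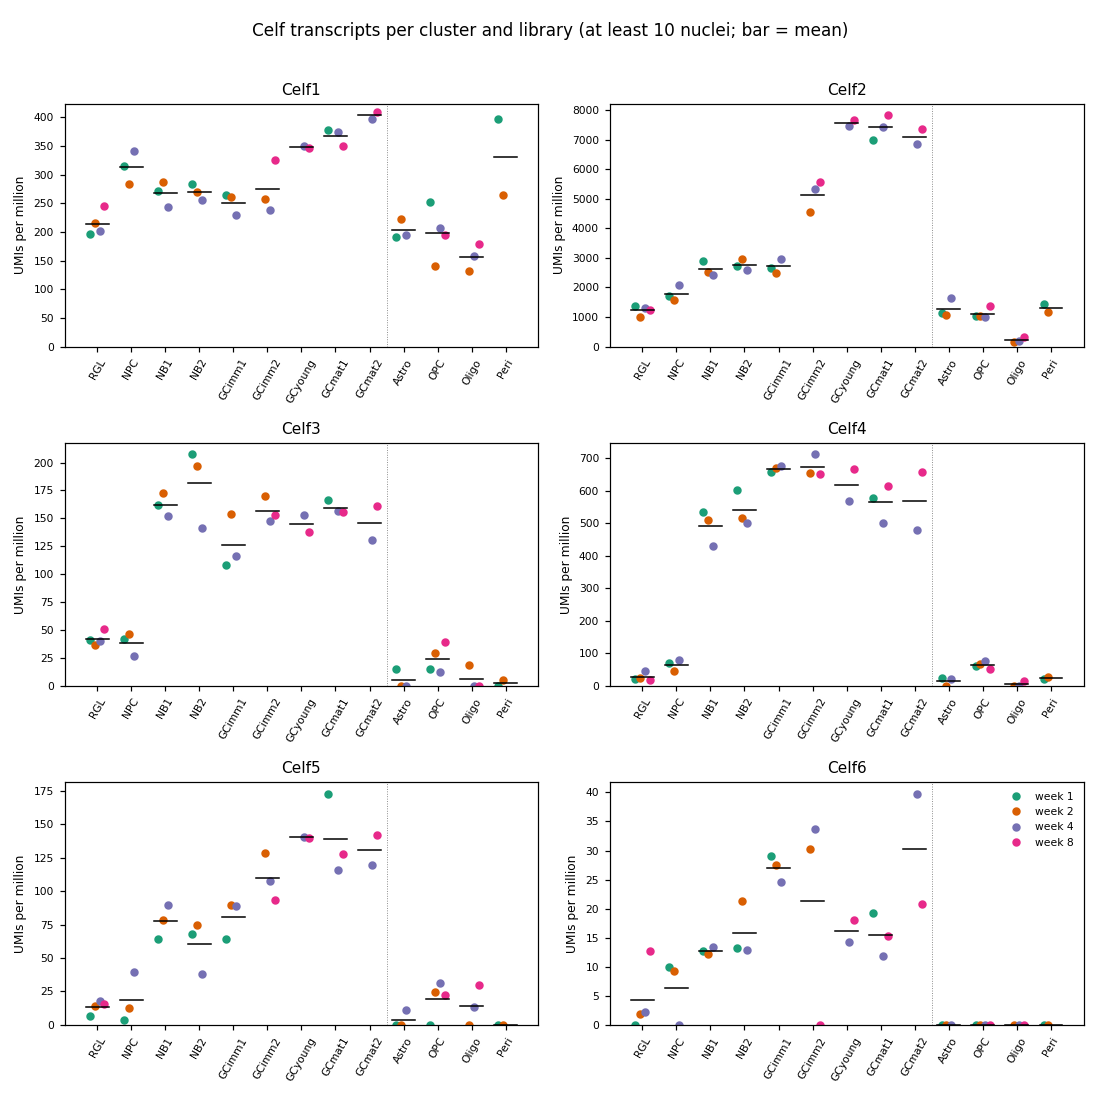
Levels of the 6 Celf genes (vertical axis, CPM, own scale for each gene) in each cluster (horizontal axis), with 1 point per library of at least 10 nuclei and a bar at the mean. Celf3, Celf4 and Celf5 are low in RGL and NPC and high from NB1 on, Celf2 rises again at GCimm2 and GCyoung, and oligodendrocytes are low in Celf2 to Celf6.

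The summed Celf level was higher in GCmat1 than in NPC, while that of the Elavl family was lower. The Celf sum was 1507 CPM in RGL, 2112 in NPC, 3776 in NB1, 6041 in GCimm2 and 9015 in GCmat1. A rise at every single step is not claimed, since Celf2 overlapped between NB1, NB2 and GCimm1. Celf2 alone gave 80.9% of it in RGL and 86.1% in GCmat1. In GCimm1 Celf4 gave 17.8% of the Celf UMIs, against 1.87% in RGL and 6.65% in GCmat1.

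The pseudo-time deposited by the authors places RGL nuclei near 0 and the last GCmat1 nuclei near 32, and levels were taken in bins of 2 units over all libraries. Elavl1 was highest first, in the bin from 6 to 8. Elavl4 and Elavl2 followed in the bin from 8 to 10 (845 and 1549.6 CPM, 232 nuclei). In the next bin Elavl4 was down to 292 CPM and Elavl2 to 999, and from 12 to 14 Elavl4 stood at 30.2 and Elavl2 at 313 CPM. Before the peak, from 6 to 8, Elavl4 stood at 514 and Elavl2 at 462 CPM in 101 nuclei, of which 75.2% were NPC. Relative to its own highest bin Elavl2 was thus lower than Elavl4 before the peak and higher than Elavl4 after it. Elavl3 (441 CPM) and Celf3 (191 CPM) were highest from 10 to 12. Celf4 followed from 16 to 18, Celf6 from 18 to 20, Celf5 from 24 to 26, Celf1 from 28 to 30 and Celf2 from 30 to 32. Libraries covered different stretches, and w1 and w2, which cover the early bins, both had Elavl2 and Elavl4 highest from 8 to 10. With bins of 1 unit the highest bin overlapped the reported one for 6 of the 10 genes. The exceptions were Celf3 (12 to 13), Celf5 (21 to 22), Celf1 (26 to 27) and Celf4 (31 to 32). The order of the Celf genes thus depended on the bin width. The bin from 8 to 10 was 55.6% NPC. With bins of 1 unit Elavl2 was highest from 9 to 10 (1681 CPM, 100 nuclei), where NB1 was the main cluster. With bins of 4 units Elavl2 was highest from 8 to 12 and Elavl4 from 4 to 8.

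**Figure D5:**
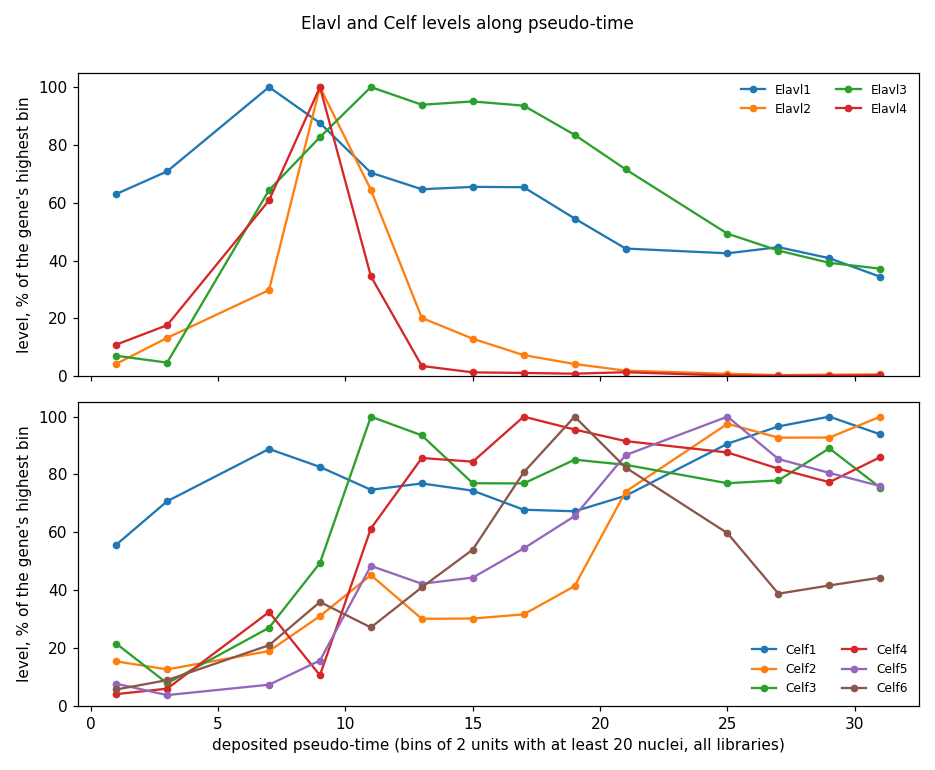
Level of each gene in bins of 2 pseudo-time units (horizontal axis, all libraries, bins with at least 20 nuclei) as a percent of the gene's own highest bin (vertical axis), Elavl genes above and Celf genes below. Elavl2 and Elavl4 form a narrow peak between 8 and 10, Elavl3 stays between 413 and 441 CPM from 10 to 18 and stands at 164 from 30 to 32, and the Celf genes other than Celf1 start far below their highest bin.

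Celf2 had a first, smaller peak early in the neuroblasts. It stood at 2477 CPM from 8 to 10, 3606 from 10 to 12 and 2400.3 from 12 to 14, and passed the first peak only from 20 to 22 (5907 CPM). The same order was seen in w1 (2632, 3687 and 2503 CPM) and in w2 (2169.9, 3519 and 2179 CPM). NB1 nuclei made up most of both bins, so the cluster means do not show it. These are descriptions with no test. Celf4 was higher in the bin from 6 to 8 (228 CPM, 101 nuclei) than in the next (74.3 CPM, 232 nuclei). It then stood at 430.3 CPM from 10 to 12. The order of the first pair held in w1 (314 and 72.4 CPM) and w2 (148 and 64.9 CPM). NPC nuclei made up 75.2% of the bin from 6 to 8, and NPC as a cluster held Celf4 at 46.2 to 78.6 CPM over libraries. The value of that bin is therefore not that of NPC as a whole, and which nuclei carried it was not tested. The 70 nuclei from 2 to 4 held 206 CPM of Elavl2 against 66.6 from 0 to 2, and 149 against 92.6 CPM of Elavl4. Of these 70 nuclei 87.1% were RGL, so the values are not those of RGL alone, and which nuclei carried them was not tested.

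Glia were compared with neurons as the mean of astrocytes, OPC and oligodendrocytes against the mean of the clusters from NB1 to GCmat2. Of the 10 members 8 were called lower in glia and none higher, against 34.5% (9.28% higher, 25.3% lower) of all 11548 genes called. The median log2 change over all genes was -0.39 under TMM and 0.01 with DESeq2, so every fold here is set against a scale that moved. With it moved the background, from 1072 genes higher and 2916 lower under TMM to 1394 and 2029 with RLE scaling and 2460 and 1977 with DESeq2. Celf4 (log2 change -5.27 ± 0.23 (SE), edgeR adjusted p = 1.66e-26), Celf3 (log2 change -4.28 ± 0.29 (SE), edgeR adjusted p = 1.68e-18) and Celf5 (log2 change -3.56 ± 0.33 (SE), edgeR adjusted p = 2.36e-13) had lower levels in glia, as had Celf2 (log2 change -2.87), Elavl2 (-2.45), Elavl3 (-1.45) and Celf1 (-0.90). These contrasts average unlike clusters. Elavl2 in OPC (29.6 CPM) lay above GCyoung, GCmat1 and GCmat2 (10.7, 9.91 and 15.0) and below the other neuronal clusters. Elavl3 averaged 441 CPM in oligodendrocytes, above each neuronal cluster (highest 429.6 in NB1). In astrocytes (29.7) and OPC (134.8) it lay below each of them. Elavl1 did not pass (log2 change 0.04 ± 0.15 (SE), edgeR adjusted p = 0.931). Celf6 was called lower too and had 1 UMI among 1230051 in the 3 glial clusters and 1514 among 83382337 in the neurons, a ratio of 22.3 times (exact interval 4.00 to 883). Elavl4 did not pass (log2 change 1.39, edgeR adjusted p = 0.21), and its value was -0.50 without w1 and -2.18 after thinning, while DESeq2, at a like log2 change, called it higher in glia. By mean level it stood at 154 CPM in OPC, 129 in NB1 and 1.45 in GCmat1.

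OPC held Elavl4 at 222 (w1), 117 (w2), 144 (w4) and 134 (w8) CPM, of which the w1 value lay above the range of NB1 (109.8 to 164 CPM) and the other three within it. In OPC 45.0% (59 of 131 nuclei) held a UMI, 24.4% after thinning. Only 5 of these nuclei held Elavl2 as well, and 6 held Elavl2 without Elavl4. Oligodendrocytes were at 18.8 (w2), 0 (w4) and 15.0 (w8) CPM, 2 UMIs in all, and OPC were higher by 16.3 times (exact interval 4.39 to 136) on pooled counts (log2 change -3.98 ± 0.68 (SE), edgeR adjusted p = 5.03e-06). The level of OPC lay below every NPC value.

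Elavl3 was high in oligodendrocytes. It stood at 544 (w2), 315 (w4) and 464 (w8) CPM in libraries with at least 10 of these nuclei, and a UMI was found in 73.3% (33 of 45 nuclei), or 48.9% after thinning to the same depth, against 54.9% in NB1. The range overlapped that of NB1 (406 to 455 CPM). OPC stood at 123 (w1), 161 (w2), 150.3 (w4) and 106 (w8) CPM, below all oligodendrocyte values, and the rise from OPC to oligodendrocytes passed (log2 change 1.44 ± 0.24 (SE), edgeR adjusted p = 3.85e-06). In oligodendrocytes the neuronal genes Rbfox3, Snap25, Syt1 and Meg3 summed to 123 CPM, against 5682 CPM in GCmat1. Celf4 stood at a single UMI in 45 nuclei, against 599 CPM in GCmat1 and 430.2 to 534 CPM in NB1. The source of the Elavl3 UMIs in oligodendrocytes was not tested, and reads of the uncounted Gm49318 may be among them.

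From OPC to oligodendrocytes 5 of 10 members were called, against 20.0% (6.7% higher, 13.2% lower) of all genes, and Elavl3 was the only one higher. Celf2 fell from 1111 ± 169.8 CPM (SD, n = 4) to 227 ± 77.3 CPM (SD, n = 3) (log2 change -2.54 ± 0.29 (SE), edgeR adjusted p = 3.33e-10), and oligodendrocytes were the lowest cluster of all for Celf2. Celf4 fell (log2 change -3.87 ± 1.00 (SE), edgeR adjusted p = 0.00262) on 43 UMIs in OPC and 1 in oligodendrocytes. Elavl1 fell (log2 change -1.19 ± 0.34 (SE), edgeR adjusted p = 0.00626), but its values overlapped (151 to 232 CPM in OPC and 44.9 to 188 CPM in oligodendrocytes), and the call was lost without w4 (adjusted p = 0.113) and without w8 (0.0968). Astrocytes held Celf2 (1274 ± 316 CPM (SD, n = 3)) and Celf1 (203 ± 16.9 CPM (SD, n = 3)) at the level of RGL, with overlapping ranges. In the cluster named pericytes Elavl1 (196 ± 3.31 CPM (SD, n = 2)) and Celf1 (330.4 ± 93.9 CPM (SD, n = 2)) were present and Elavl2, Elavl4, Celf5 and Celf6 had no UMI, which among 316576 UMIs allows up to 9.48 CPM.

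Within a cluster, values by week are single libraries. In RGL, sampled in all 4 weeks, Elavl2 ran from 60.4 to 80.9 CPM, Elavl4 from 73.3 to 106 and Celf2 from 1009 to 1362. In NPC Elavl2 stood at 1275 (Poisson interval 1177 to 1378), 899.6 (799 to 1009) and 721 CPM (543 to 938) in w1, w2 and w4. The interval of w1 did not reach those of the later weeks. Elavl4 in NB1 was higher in w1 (164 CPM, 154 to 174) than in w2 (113 CPM, 102 to 123). Elavl3 in GCmat1 was 172 CPM in w4 and 171 in w8, with overlapping counting intervals. These intervals cover counting error only, and week and pool cannot be told apart.

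Other RNA-binding proteins of the same kind of work changed as well. Of 31 further stability and translation factors 28 were tested. From RGL to NPC 11 rose and 6 fell, where 13.7% of all genes were called higher and 15.9% lower (median log2 change 0.27, against -0.05 over all genes), among them Syncrip (1.14) and Caprin1 (1.05) up and Qk, a glial RNA-binding protein (-2.14), Cpeb1 (-2.02) and Zfp36l1 (-1.66) down. Zfp36l1 promotes the decay of AU-rich transcripts that Elavl proteins stabilise. It went on to fall from NPC to NB1 (-5.43 ± 0.33 (SE), edgeR adjusted p = 6.03e-19), its pooled CPM being 254 (RGL), 97.4 (NPC) and 1.84 (NB1), and its paralogue Zfp36l2 fell with it (-3.04 ± 0.83 (SE), edgeR adjusted p = 0.00327). From NB1 to GCmat1 6 rose and 11 fell, where 20.2% of all genes were called higher and 19.9% lower (median -0.39, against -0.04 over all genes). Cpeb1 (2.37) and Cpeb2 (2.05) were among those that rose, and the stem cell factors Msi1 (-3.58) and Msi2 (-1.93) among those that fell. No gene of this list was called from GCyoung to GCmat1 or from GCmat1 to GCmat2, where 3.85% and 7.3% of all genes were.

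Mbnl proteins act on many of the exons that CELF proteins act on, often in the opposite sense. Of 3 Mbnl genes 2 were tested. Mbnl2 fell from RGL to NPC (-1.57 ± 0.23 (SE), edgeR adjusted p = 1.38e-07) and rose from NB1 to GCmat1 (2.59 ± 0.21 (SE), edgeR adjusted p = 1.20e-15). By pooled counts it stood at 101 CPM in GCimm1, 207 in GCimm2 and 444 in GCyoung. Mbnl2 was called higher at both of these steps (1.14 and 1.39), and Mbnl1 at no step of the lineage.

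Transcripts known as bound by neuronal Elavl proteins did not move together. Of 13 listed, 11 were tested, and from NB1 to GCmat1, where Elavl2 and Elavl4 fell, 4 rose and 4 fell, against 20.2% of all genes called higher and 19.9% lower (median log2 change 0.16, against -0.04 over all genes). Gap43, a growth cone protein whose transcript is a textbook target of Elavl4, fell (-4.04 ± 0.42 (SE), edgeR adjusted p = 7.04e-12), as did Satb1 (-2.02) and Marcks (-1.99). Camk2a (5.66 ± 0.26 (SE), edgeR adjusted p = 7.59e-25) and Bdnf (2.47) were among those that rose. From RGL to NPC, where Elavl2 and Elavl4 rose, Marcks (2.09) and Nrn1 (1.23) rose and Mapt (-1.27) and Ache fell. Gap43 was at 24.1 CPM in NPC, 92.9 in NB2 and 1.44 in GCmat1 by pooled counts, so it was highest after the peak of Elavl4. Of 6 transcripts listed as bound or spliced by CELF proteins, which include Celf1 and Celf2 themselves, 4 rose and none fell from NB1 to GCmat1, again against 20.2% of all genes higher (median 1.40, against -0.04 over all genes). Celf1 and Celf2 are 2 of these 4, so count and median restate in part what was given above. The others were Grin1 (2.32 ± 0.20 (SE), edgeR adjusted p = 1.21e-14) and Scn8a (1.86 ± 0.19 (SE), edgeR adjusted p = 5.95e-12). UMIs count RNA of the nucleus, and neither stability nor splicing was measured.

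The genes whose profile was most like that of each member were taken by Pearson's r of the log2 scaled level over the 29 sums of the first fit, among 10923 genes. The sums share libraries and clusters, so r describes likeness and has no test. Among the nearest to Elavl2 were Zbtb46 (r = 0.92) and 2610020C07Rik (0.91). Nearest to Elavl4 were Gm4258 (0.89), Kif21a (0.89) and Spidr (0.88). Elavl3 was most like Nsg2 (0.95), Kcnb2 and Ppm1l (both 0.95). Celf2 was most like Large (0.97), Mmp16 and Syt7, and Celf4 most like Xkr4 (0.98), Osbp2 and Pacsin1 (both 0.97). Celf5 was nearest to Ppfia2 (0.98) and Celf3 to Cers6 (0.97). Among the members themselves the closest pairs were Celf1 and Celf2 (0.92) and Celf4 and Celf5 (0.90), and Elavl2 and Elavl4 reached 0.79.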

How the data were processed

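Green nuclei of 4 pools of 4 mice were profiled by droplet sequencing of 3′ ends, 1 library for each week. The authors aligned the reads with STARsolo 2.7.4a to the GRCm38 mouse genome, left out reads with several positions and counted UMIs over exons and introns. They removed doublets and a set of w4 nuclei, clustered the rest and assigned pseudo-time with slingshot. The paper proposes that these w4 nuclei could come from 1 male mouse, a possible outlier. The w4 values may therefore hold fewer nuclei of 1 of the 4 mice. The authors deposited raw UMI counts per barcode (17046 barcodes). They also deposited normalized log2 expression values (13353 genes, 9 of the members) with cluster and pseudo-time per nucleus in 1 table. The pseudo-time is a score without unit. The 14367 nuclei of that table were used with their deposited UMI counts.

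Counts were summed per library and cluster (at least 10 nuclei) and fitted with edgeR 4.0.16 (R 4.3.3; filterByExpr, TMM, quasi-likelihood F test) with cluster and library as terms. The first fit held 29 sums of the lineage clusters and astrocytes (13513 genes, 16 residual degrees of freedom), and the second 38 sums of all clusters (11548 genes, 22 residual degrees of freedom). Adjusted p-values are Benjamini-Hochberg over all genes tested. Depth was 13227971 to 28595331 UMIs per library. Intervals are 95% exact Poisson for levels and cover counting error only, and a count of 0 allows up to 3 counts. For thinned shares each nucleus was drawn down to 2000 UMIs, which left out 141 nuclei. Pseudo-time bins needed 20 nuclei. The p-values measure the spread between these sums, not between animals. The script was tested on simulated counts. Of 100 genes changed 2-fold, 26 were recovered for RGL to NPC and 54 for GCimm2 to GCyoung. For neurons to glia 37 were recovered, and for OPC to oligodendrocytes 8. Of 100 genes changed 4-fold, 71, 90, 86 and 33 were recovered in these comparisons, and 6, 7, 20 and 3 unchanged genes were called. A gene that was not called can therefore still differ. Alternatives were no library term, DESeq2 1.42.0, RLE scaling, no filter, other minima of nuclei, other folds, thinning, all clusters in the fit, the deposited log2 values, and each library left out.

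Members are all genes named Elavl or Celf with a number. Members and gene lists (at most 3 genes named per direction, by size) were chosen with earlier results of these data known, and the most alike genes are the 3 highest r among genes with at least 500 UMIs. Positions are from GENCODE M21 and promoters from RefSeq on GRCm38.p6. The driver gene of the Cre line and a few genes of the lists are not reported here.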

Additional observations from a re-analysis of the deposited data

Results flagged for a closer look

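Celf6 moved in opposite directions in the 2 libraries that hold both GCimm2 and GCyoung. In w8 it went from 0 to 18.1 CPM, a log2 difference of 2.47 after 0.5 counts were added, and in w4 from 33.7 to 14.3 CPM. The value of 0 in w8 rests on 28 nuclei with 150112 UMIs, where 3 counts would make 20.0 CPM. The difference between the libraries was not tested, and its cause was not tested.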

How the results depend on the processing

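Of the results recomputed under other settings, 1583 kept their direction and their side of the threshold (counts within 1.5 times), 47 lost a call, 27 gained one, 55 moved and 3 reversed. Where the cause is not part of the setting itself, it was not tested. The reversals concern Elavl4. By the difference of mean log2 values per nucleus, GCimm2 to GCyoung came to 0.0018, and the uncalled difference between neurons and glia went to -2.18 after thinning and, with each library left out, ran from -0.50 (without w1) to 1.57. Counted by that difference of mean log2 values, which shrinks changes of low genes and leaves out Celf2, the members past the fold numbered 0 for astrocytes to RGL, 2 for NPC to NB1, 0 for NB1 to NB2, 1 for NB1 to GCimm1, 0 for GCimm1 to GCimm2, 0 for GCimm2 to GCyoung, 5 for RGL to GCmat1, 2 for NB1 to GCmat1 and 1 for OPC to oligodendrocytes. DESeq2 called 0 members from NB1 to NB2. A fold of 2 left 1 member for GCimm1 to GCimm2, 2 for GCimm2 to GCyoung and 4 for NB1 to GCmat1. With each library left out, the counts ran from 0 to 1 for NB1 to NB2 (0 without w1), from 1 to 3 for GCimm1 to GCimm2 (1 without w2), from 1 to 4 for GCimm2 to GCyoung (1 without w4) and from 4 to 7 for NB1 to GCmat1 (4 without w4). The cluster with the highest level stayed the same for 6 of 10 members on UMIs per nucleus, the cluster with the highest share for 4 of 10 after thinning, and the highest pseudo-time bin for 6 of 10 with bins of 1 unit. No paired analysis was possible by replicate number because all libraries carry the number 1. Clusters of the same library are matched through the library term of the fit. Oligodendrocytes (45 nuclei), pericytes (60) and astrocytes (67) limit what low genes can show in glia.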
